A study of Homo sapiens with 21 samples.

Results

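Nuclear speckles are bodies in the cell nucleus that are rich in splicing factors, and 10 genes for their resident RNAs and scaffold proteins were followed here: MALAT1, NEAT1, SON, SRRM2, SRRM1, PNN, ACIN1, BCLAF1, THRAP3 and NKTR. They were chosen by symbol, through the Ensembl identifiers of the count tables, and the rule for them uses no measured value, although earlier results of these data were known when they were proposed. All 10 were found among the 60668 genes listed, and all 10 passed the filter on low counts in both tables. The cells were HCC1806, an established human breast cancer line of the triple-negative kind that was cultured flat in DMEM with serum. The data are 21 polyA-selected RNA-seq libraries in 7 groups of 3 replicates, deposited as 2 count tables. The table with the combined lines holds the control 3XCTL, 3xSR, which is labelled as overexpressing the splicing factors SRSF2, SRSF3 and SRSF7 together, and MYC-OE, which is labelled as overexpressing the transcription factor MYC. The table with the single lines holds 1xCtrl, a control with a single plasmid, and cells labelled SRSF2 OE, SRSF3 OE or SRSF7 OE. The labels do not say which vector or promoter drove each gene, how long it was expressed, whether a line was 1 clone, or whether the replicates came from separate cultures, so p-values measure the spread between these libraries, which may be technical.

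Speckles store and modify splicing factors near active genes. SON and SRRM2 are very large proteins with stretches rich in serine and arginine (RS-rich) that hold the body together, and the other protein members carry RS-rich stretches and act in splicing or in the handling of mRNA. MALAT1 is a long noncoding RNA held in speckles, and NEAT1 is the long noncoding RNA around which the neighbouring paraspeckles are built. SRSF2, SRSF3 and SRSF7 are SR proteins, RNA-binding splicing factors that reside in speckles, so the comparisons ask how the transcripts of the body's own components stood when its clients or MYC were overexpressed.

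A stretch of MALAT1 is shown because the libraries were polyA-selected and this RNA is not an ordinary polyadenylated transcript. The mature end of MALAT1, and that of the long form of NEAT1, is made by cleavage and protected by a triple helix with an A-rich stretch written in the genome, whereas the short form of NEAT1 carries a polyA tail. The stretch comes from the GENCODE release 29 transcript MALAT1-202 on GRCh38, at chr11:65506018-65506140 on the plus strand, and capitals mark the longest run of A in the transcript. That run is 13 bases long and lies 359 bases before the annotated end of a transcript of 8708 bases. Which A-rich stretch or tail each read was selected through was not measured.
MALAT1-202: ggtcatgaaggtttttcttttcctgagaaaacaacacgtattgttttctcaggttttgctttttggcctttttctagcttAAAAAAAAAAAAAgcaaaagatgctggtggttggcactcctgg

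Promoters are shown for a pair of members because MYC binds the E-box, whose letters are CACGTG on either strand. RefSeq promoter windows (GRCh38.p14, 250 bases before to 50 after each gene's start) were at hand for 9 of the 10 members in 14 windows, and NEAT1 had none. The E-box occurred in 1 of the 14 windows, that of THRAP3 at chr1:36224193-36224492, where capitals mark it. Over all promoters in the table, 7.26% of 35116 windows and 8.77% of 27305 genes held it. MALAT1, the member with the largest difference in MYC-OE (below), has no CACGTG in either of its windows. The one shown, at chr11:65497488-65497787, is 73.7% G or C, and the other, at chr11:65498795-65499094, is 46.0%. A match is only a match of letters and no match says only that these letters are not in the window.
THRAP3 promoter: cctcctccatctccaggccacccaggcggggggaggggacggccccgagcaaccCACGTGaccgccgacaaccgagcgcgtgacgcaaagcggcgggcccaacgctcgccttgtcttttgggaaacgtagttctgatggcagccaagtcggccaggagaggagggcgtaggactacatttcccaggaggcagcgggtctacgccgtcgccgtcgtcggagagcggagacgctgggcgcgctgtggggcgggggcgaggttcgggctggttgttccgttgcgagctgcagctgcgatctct
MALAT1 promoter: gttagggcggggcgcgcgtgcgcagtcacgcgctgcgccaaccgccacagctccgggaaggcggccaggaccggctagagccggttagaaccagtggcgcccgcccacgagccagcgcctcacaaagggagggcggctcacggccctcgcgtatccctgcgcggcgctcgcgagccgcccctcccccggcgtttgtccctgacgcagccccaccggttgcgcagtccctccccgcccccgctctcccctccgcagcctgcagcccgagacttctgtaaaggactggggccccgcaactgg

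Libraries held between 143269192 and 303323552 counts, and the members between 19074 and 371616 counts in any library. The libraries carried epithelial markers (EPCAM from 517 to 705 CPM, read counts scaled to a common library size, and KRT5 from 1600 to 2651 CPM), low ESR1 (6.49 to 11.5 CPM), and almost no marker of leukocytes, endothelium or fibroblasts (PTPRC, PECAM1 and COL3A1 each at most 0.573 CPM, COL1A1 5.46 to 15.7 CPM). PGR, the progesterone receptor gene, set the controls apart: it stood at 0.103 to 0.315 CPM in 3XCTL, 1.14 to 1.46 CPM in 1xCtrl and at most 0.0305 CPM in any overexpressing library, and was called lower in all 5 comparisons with a control. Its part in the results was not tested. MYC was higher in MYC-OE by 0.90 on the log2 scale, and SRSF3 and SRSF7 were higher in their own single lines by 0.49 and 0.26. SRSF2 was not: it stood at 398 CPM in the libraries labelled SRSF2 OE against 444 in 1xCtrl, and at 386 CPM in those labelled 3xSR against 403 in 3XCTL, so these 2 groups are named here by their labels only. In 3xSR, SRSF3 and SRSF7 were higher by 0.31 and 0.44, and MYC by 0.75. Over the 5 comparisons with a control, SRSF3 and SRSF7 were each called higher in 3. SRSF2 was called lower in 2, with a lowest log2 fold change of -0.48. Changes in these genes were thus not confined to the lines labelled for them. MYC was also called higher in SRSF3 OE by 0.26 and in SRSF7 OE by 0.27, and not in the libraries labelled SRSF2 OE (0.12), so MYC-OE was not the only line with more MYC than its control. One library, 1xCtrl replicate 2, stood apart from its replicates, with a spread of 0.412 (SD of log2 CPM differences) where the other libraries had 0.127 to 0.302, and with deviations that followed the GC content of genes (r = 0.80 across genes). Calls, counts and list values against 1xCtrl are therefore given also without it. Other libraries followed GC content too, with r = -0.73 in 1xCtrl replicate 3 and -0.72 in 3XCTL replicate 2, whose spread was 0.272. These r compare a library with the other replicates of its group, for 1xCtrl replicate 3 with replicate 2 among them. Against the mean of all libraries of its table, 1xCtrl replicate 3 had -0.54. By that measure 3xSR had -0.58, -0.28 and -0.45, and MYC-OE 0.24, 0.23 and 0.42. SRSF3 OE had -0.38, -0.23 and -0.22, and SRSF7 OE 0.32, -0.11 and 0.38. GC content thus ran partly with the groups compared. Values against 3XCTL are given without 3XCTL replicate 2 only where named.

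Of 50 tests of a member against the control of its table, 21 passed an adjusted p of 0.05 (edgeR's quasi-likelihood test, Benjamini-Hochberg over all genes tested), 15 lower and 6 higher in the overexpressing line. In the libraries labelled 3xSR 3 of 10 members passed, 2 higher and 1 lower, where 29.0% of all 23160 genes tested did. In MYC-OE 5 of 10 passed and all 5 were lower, beside 35.3% of all genes in either direction and 17.3% lower. In the libraries labelled SRSF2 OE 4 passed, 3 lower and 1 higher, beside 23.5% of 24362 genes (11.9% lower, 11.6% higher). In SRSF3 OE 4 passed, 3 higher and 1 lower, beside 29.2%. In SRSF7 OE 5 passed and all were lower, beside 17.3% in either direction, 8.26% lower and 9.03% higher. The counts in 3xSR and SRSF3 OE were near the share among all genes, while no member passed as higher in MYC-OE or SRSF7 OE. The members were chosen by role, so these counts describe them and carry no test. Without 1xCtrl replicate 2 the counts were 5 in SRSF2 OE (4 lower), 2 in SRSF3 OE (1 lower) and 7 in SRSF7 OE (all lower). The genes called among all 25110 tested moved too, to 7545 in SRSF2 OE (15.6% of all lower), 8064 in SRSF3 OE (32.1%, 15.8% lower) and 7321 in SRSF7 OE (29.2%, 12.8% lower), so the rise from 5 to 7 members in SRSF7 OE went with a rise over all genes.

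**Figure D1:**
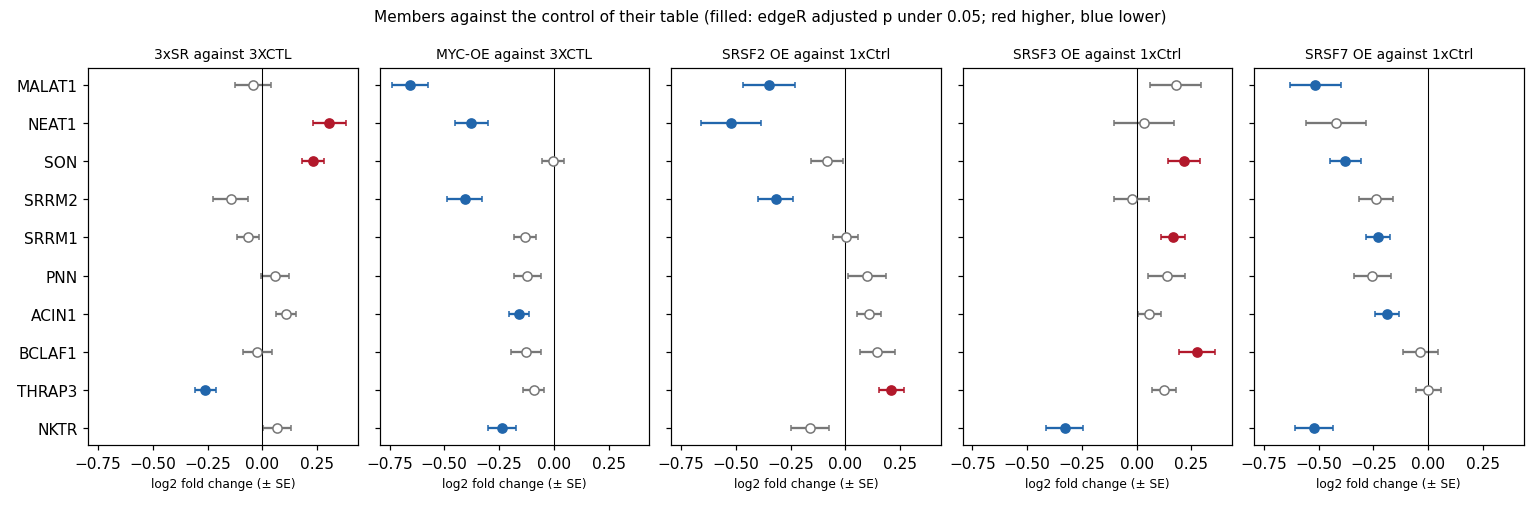
Log2 fold change of each member against the control of its table (x axis, bars are ± SE), with 1 panel per overexpressing line; filled points passed an adjusted p of 0.05, red higher and blue lower. All filled points in the MYC-OE and SRSF7 OE panels lie to the left of 0, and MALAT1 in MYC-OE, at -0.66, lies farthest.

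In SRSF7 OE 8 members lay wholly below 1xCtrl and none above, where 32.6% of all genes did not overlap in either direction. In MYC-OE 7 lay wholly below 3XCTL and none above, beside 48.3%. Among the libraries labelled 3xSR 4 did not overlap, 3 of them higher, beside 40.2%. The corresponding counts were 5 in SRSF2 OE (35.9% of all genes) and 5 in SRSF3 OE (39.8%). Against 1xCtrl replicates 1 and 3 alone, where fewer libraries overlap less often by construction, the counts were 9 in SRSF7 OE, all lower (54.0% of all genes), 7 in SRSF3 OE (55.1%) and 7 in SRSF2 OE (54.7%). The median log2 fold change of the 10 members was -0.15 in MYC-OE and -0.25 in SRSF7 OE, and 0.02, -0.04 and 0.13 in 3xSR, SRSF2 OE and SRSF3 OE, with the median of all genes between -0.03 and 0.00. The medians of the members without 1xCtrl replicate 2 were -0.26 in SRSF7 OE, 0.09 in SRSF3 OE and -0.07 in SRSF2 OE. MYC-OE and SRSF7 OE were also the groups with the lowest share of counts on mitochondrial genes, at 9.58% and 9.72% against 11.5% in 3XCTL and 11.9% in 1xCtrl, and the part of this in the members' values was not tested. In bulk RNA, fewer cells with a transcript and less of it per cell cannot be told apart.

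Per kilobase of exon, PNN and SRRM2 had the highest levels of the members in every group and NKTR the lowest. In 3XCTL SRRM2 stood at 80.2 ± 5.71 CPM per kb (SD, n = 3) and PNN at 72.8 ± 6.15, and the libraries of these neighbours overlapped. NEAT1 followed at 49.0 ± 2.38 over the 22767 exon bases of its gene, overlapping THRAP3 at 45.2 ± 1.07, which in turn overlapped MALAT1 at 44.0 ± 5.03. Below them came ACIN1 at 33.8 ± 0.540, SON at 28.7 ± 1.10, BCLAF1 at 21.1 ± 1.63, SRRM1 at 17.7 ± 0.905 and NKTR at 10.4 ± 0.896, with no overlap between neighbours. The place of NEAT1 depends on which form the reads came from, because over the 3524 bases of the short form its level would be 317 CPM per kb, above every other member. MALAT1 covered the widest range in this order, from place 4 in 3xSR to place 7 in MYC-OE.

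**Figure D2:**
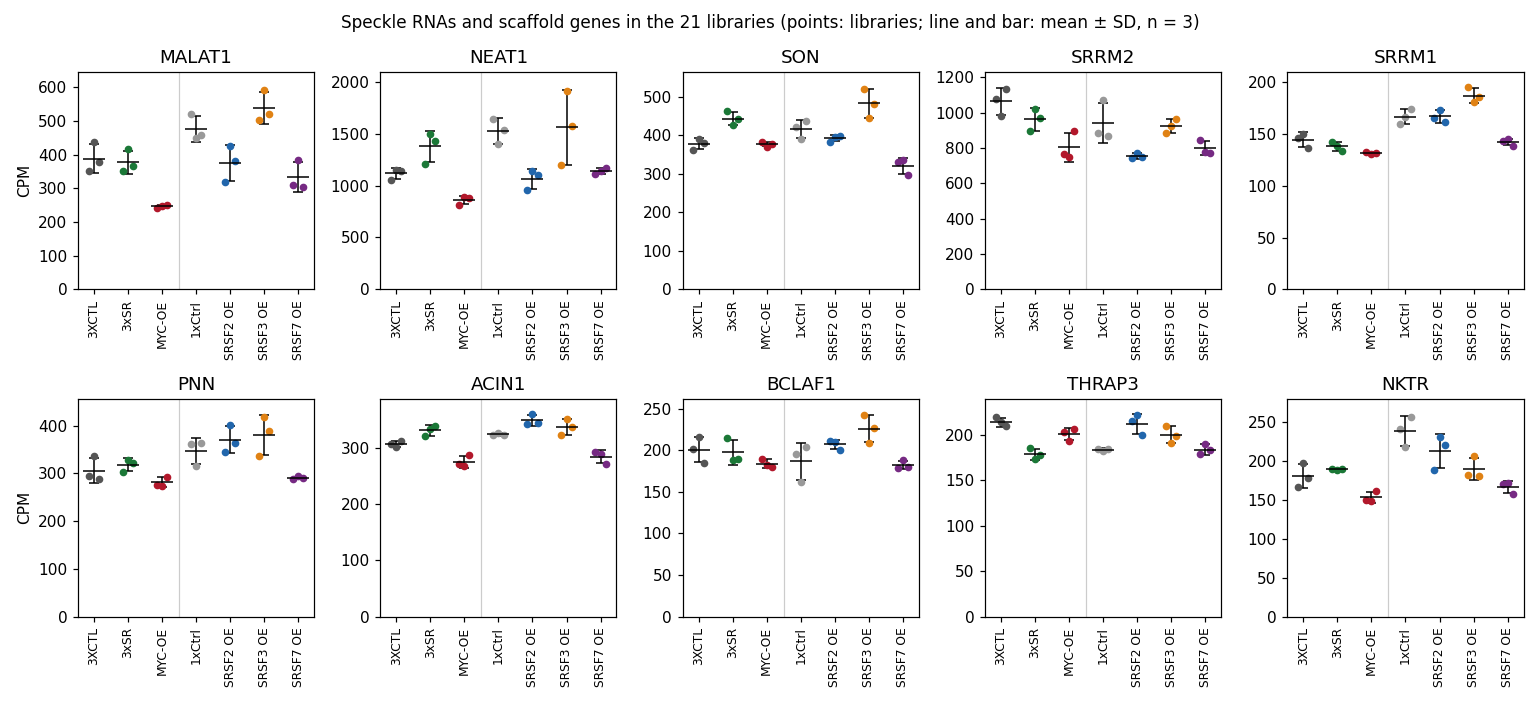
CPM of each member (y axis, from 0) in the 21 libraries, with 1 point per library and the mean ± SD (n = 3) of each group; the grey line parts the 2 count tables. The MALAT1 points of MYC-OE lie between 242 and 249 CPM, below every 3XCTL point.

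MALAT1 (chr11:65497688-65506516, plus strand) fell in MYC-OE, in SRSF7 OE and in the libraries labelled SRSF2 OE. It measured 350.1, 437 and 378 CPM in 3XCTL replicates 1 to 3 and 242, 247 and 249 in MYC-OE. The MYC-OE libraries were tightly grouped and all lay below the lowest control, a log2 fold change of -0.66 (± 0.0818 SE, adjusted p = 7.02e-05, edgeR). Against 1xCtrl, at 521, 450.0 and 457 CPM, SRSF7 OE measured 311, 385 and 304, lower by 0.52 on the log2 scale (± 0.117 SE, adjusted p = 0.010, edgeR). The libraries labelled SRSF2 OE, at 318, 424 and 379 CPM, also lay wholly below 1xCtrl, with a log2 fold change of -0.35 (± 0.117 SE, adjusted p = 0.0479, edgeR). This last call was close to the threshold and ended without 1xCtrl replicate 1 (adjusted p = 0.0804), SRSF2 OE replicate 1 (0.0817) or SRSF2 OE replicate 3 (0.0551), and under upper-quartile scaling (0.0566). Both calls held without 1xCtrl replicate 2, at -0.54 in SRSF7 OE (adjusted p = 0.00843) and -0.39 in SRSF2 OE (adjusted p = 0.037). In the libraries labelled 3xSR, at 349.7, 415 and 366 CPM, MALAT1 differed from 3XCTL by less than the spread between replicates (-0.04 ± 0.0815 SE). SRSF3 OE, at 502, 591 and 522 CPM, overlapped 1xCtrl (0.18 ± 0.117 SE, adjusted p = 0.295, edgeR).

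NEAT1 (chr11:65422774-65445540, plus strand, upstream of MALAT1 in the same band) rose in the libraries labelled 3xSR and fell in MYC-OE and in those labelled SRSF2 OE. It measured 1054, 1154 and 1141 CPM in 3XCTL and 1211, 1499 and 1426 in 3xSR. The 3xSR libraries all lay above the controls, with a log2 fold change of 0.30 (± 0.0749 SE, adjusted p = 0.0095, edgeR), a call that ended without 3XCTL replicate 1 (0.0519) or 3xSR replicate 2 (0.0516). MYC-OE lay on the other side of the same controls, at 816, 885 and 877 CPM, lower by 0.38 (± 0.0750 SE, adjusted p = 0.00198, edgeR). In 1xCtrl NEAT1 stood at 1645, 1402 and 1532 CPM. The libraries labelled SRSF2 OE, at 957, 1136 and 1097 CPM, were all below these, with a log2 fold change of -0.52 (± 0.137 SE, adjusted p = 0.0159, edgeR), and of -0.59 (adjusted p = 0.0157) without 1xCtrl replicate 2. SRSF7 OE, at 1107, 1141 and 1173 CPM, also did not overlap 1xCtrl, and its log2 fold change of -0.42 (± 0.136 SE) missed the threshold at adjusted p = 0.0539 and passed it without 1xCtrl replicate 2 (-0.47, edgeR adjusted p = 0.0449) and under 6 of the other alternatives. SRSF3 OE spread from 1193 through 1577 to 1913 CPM, across the whole range of 1xCtrl, and its log2 fold change of 0.03 (± 0.136 SE) changed sign under 5 of the alternatives in scaling, filter, GC and libraries fitted.

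The 2 RNAs did not move in step in the combined lines. The ratio of NEAT1 to MALAT1 counts was 3.01, 2.64 and 3.02 in 3XCTL, 3.46, 3.61 and 3.90 in the libraries labelled 3xSR and 3.37, 3.59 and 3.52 in MYC-OE. It was higher than in every control library in both lines, through a higher NEAT1 in 3xSR and a deeper fall of MALAT1 in MYC-OE. For each line an exact two-sided permutation test over 3 against 3 libraries gave p = 0.1, the smallest this design allows. In 1xCtrl the ratio was 3.16, 3.12 and 3.35, in the libraries labelled SRSF2 OE 3.01, 2.68 and 2.89, again without overlap (exact permutation p = 0.1). SRSF3 OE (2.38, 3.23 and 3.02) and SRSF7 OE (3.56, 2.96 and 3.86) overlapped their control, with exact permutation p-values of 0.3 and 0.5. These 3 lines kept their overlap or lack of it without 1xCtrl replicate 2, with exact permutation p-values of 0.1, 0.5 and 0.7, where 0.1 is the smallest that 3 against 2 libraries allow. The exons of NEAT1 share 484 bases with small RNAs annotated on the same strand and those of MALAT1 share 152, and the way reads on shared bases were counted is not given in the sources used here.

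**Figure D3:**
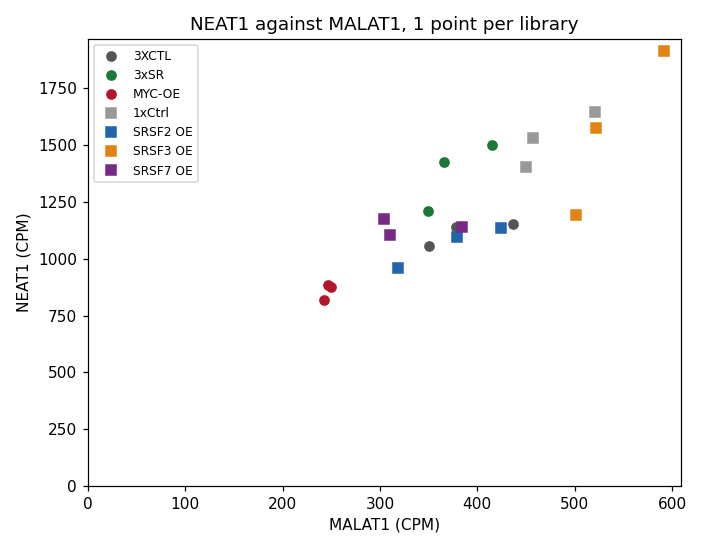
NEAT1 against MALAT1 in CPM, with 1 point per library (circles, table of the combined lines; squares, table of the single lines). The 3 MYC-OE points lie at the lower left, below 250 CPM of MALAT1, and the 3xSR points lie above 3XCTL in NEAT1 at like MALAT1.

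SON (chr21:33542618-33577481) is the RS-rich scaffold without which speckles lose their shape. It rose in the libraries labelled 3xSR, from 363, 392 and 381 CPM in 3XCTL to 463, 428 and 442, by 0.23 on the log2 scale (± 0.0492 SE, adjusted p = 0.00422, edgeR) and without overlap. In MYC-OE, at 382, 371 and 379 CPM, it did not differ from the same controls beyond their spread (0.00 ± 0.0492 SE). The single lines stood on either side of 1xCtrl, which measured 421, 391 and 436 CPM. SRSF7 OE, at 329.9, 335 and 296 CPM, lay wholly below it, lower by 0.38 (± 0.0718 SE, adjusted p = 0.00355, edgeR), and by 0.41 (adjusted p = 0.000734) without 1xCtrl replicate 2. SRSF3 OE, at 522, 445 and 482 CPM, lay wholly above it, with a log2 fold change of 0.22 (± 0.0717 SE, adjusted p = 0.0378, edgeR). The SRSF3 OE call ended without 1xCtrl replicate 1 (0.149), 2 (0.0957) or 3 (0.068) and without SRSF3 OE replicate 1 (0.246) or 3 (0.145), and under 6 of the other alternatives. The libraries labelled SRSF2 OE, at 384, 395 and 399.5 CPM, overlapped 1xCtrl (-0.08 ± 0.0717 SE). The exons of SON share 582 bases with GART and DONSON on the opposite strand.

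SRRM2 (chr16:2752329-2772538), the other large scaffold, was not called higher in any line and fell in MYC-OE and in the libraries labelled SRSF2 OE. It measured 1076, 983 and 1134 CPM in 3XCTL and 766, 748 and 896 in MYC-OE. All MYC-OE libraries lay below the controls, with a log2 fold change of -0.41 (± 0.0793 SE, adjusted p = 0.00175, edgeR). In 1xCtrl SRRM2 stood at 885, 1074 and 865 CPM, the high value being that of the library that stood apart. The libraries labelled SRSF2 OE, at 745, 772 and 748 CPM, lay below all 3, with a log2 fold change of -0.32 (± 0.0795 SE, adjusted p = 0.0109, edgeR), and of -0.22 (adjusted p = 0.0123) without 1xCtrl replicate 2. The call ended when only these 2 groups were fitted (adjusted p = 0.069). SRSF7 OE, at 843, 779 and 773 CPM, missed the threshold (-0.24 ± 0.0795 SE, adjusted p = 0.0569, edgeR), and its difference shrank to -0.12 (adjusted p = 0.154) without 1xCtrl replicate 2 and passed without 1xCtrl replicate 3 (-0.33, adjusted p = 0.0306) and under 5 of the other alternatives. In 3xSR, at 895, 1022 and 971 CPM, and in SRSF3 OE, at 887, 926 and 967 CPM, SRRM2 overlapped its controls.

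SRRM1 (chr1:24631716-24673267), a splicing coactivator that travels with spliced mRNA, was called in neither combined line and in 2 single lines. 1xCtrl measured 159.6, 167 and 175 CPM, and SRSF7 OE 144, 145 and 139, lower by 0.23 (± 0.0555 SE, adjusted p = 0.0134, edgeR) without overlap. That call ended when only the 2 groups compared were fitted (adjusted p = 0.0564) and was -0.22 (adjusted p = 0.00885) without 1xCtrl replicate 2. SRSF3 OE, at 195, 181 and 185 CPM, lay above 1xCtrl, with a log2 fold change of 0.17 (± 0.0555 SE, adjusted p = 0.0388, edgeR). This call held in 3 of the 10 alternatives and, of the fits that leave out 1 library, only without 1xCtrl replicate 2 (adjusted p = 0.0494), where SON in the same line held in 4 and in 1. It ended with adjusted p = 0.396 without 1xCtrl replicate 1, 0.0934 without 3, and 0.346, 0.0789 and 0.221 without SRSF3 OE replicates 1, 2 and 3. Total counts alone as the scale moved the SRSF3 OE value to 0.05 (adjusted p = 0.466), while moving the median of all genes to -0.14. MYC-OE, at 133, 131 and 132 CPM against 147, 151 and 136 in 3XCTL, did not overlap its control and missed the threshold (-0.13 ± 0.0508 SE, adjusted p = 0.0635, edgeR), which it passed without 3XCTL replicate 3 (-0.17, adjusted p = 0.0208).

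ACIN1 and PNN share partners: each forms a complex with SAP18 and RNPS1, called ASAP and PSAP, that joins the exon junction complex deposited on spliced mRNA. ACIN1 (chr14:23058564-23095614, minus strand) measured 307, 303 and 313 CPM in 3XCTL and 271, 268 and 287 in MYC-OE. It was lower there by 0.16 (± 0.0468 SE, adjusted p = 0.0192, edgeR), a small change that the close replicates resolved. The call ended without 3XCTL replicate 3 (0.057), MYC-OE replicate 1 (0.0818) or MYC-OE replicate 2 (0.0892). In SRSF7 OE it measured 293, 289 and 272 CPM against 323, 328 and 323 in 1xCtrl, lower by 0.19 (± 0.0543 SE, adjusted p = 0.0296, edgeR), and by 0.17 (adjusted p = 0.0221) without 1xCtrl replicate 2. The SRSF7 OE call ended without SRSF7 OE replicate 3 (0.0656) or when only the 2 groups were fitted (0.0837). In the libraries labelled 3xSR (321, 334 and 339 CPM) and SRSF2 OE (343, 361 and 345 CPM), ACIN1 lay wholly above its control by 0.11 in each without passing the threshold (adjusted p = 0.106 and 0.183). After removal of the GC trend the 3xSR value was 0.18 and passed (adjusted p = 0.00108). ACIN1 exons share 640 bases with C14orf119 on the opposite strand.

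PNN (chr14:39175183-39183218), known as pinin, was called in none of the 5 comparisons with a control. Its log2 fold changes lay between -0.25 and 0.14. The lowest was that of SRSF7 OE, where libraries at 288, 293 and 289 CPM lay below 361, 315 and 363 in 1xCtrl (± 0.0858 SE, adjusted p = 0.0593, edgeR). Without 1xCtrl replicate 2 it was -0.31 and passed (adjusted p = 0.00933), as it did under 6 of the other alternatives.

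BCLAF1 and THRAP3 are related RS-rich proteins that act together in mRNA processing and the response to DNA damage. No line had both called, but with the GC trend removed both were called in 3 lines, in the same direction within each. They were -0.18 and -0.28 for BCLAF1 and THRAP3 in 3xSR, 0.26 and 0.19 in SRSF2 OE, and 0.19 and 0.18 in SRSF3 OE (edgeR adjusted p at most 0.0137). THRAP3 (chr1:36224416-36305357) fell in the libraries labelled 3xSR, from 219, 214 and 209 CPM in 3XCTL to 185, 173 and 177, by 0.26 on the log2 scale (± 0.0483 SE, adjusted p = 0.00165, edgeR) and without overlap. In those labelled SRSF2 OE it was higher, at 216, 221 and 200.2 CPM against 185, 182 and 184 in 1xCtrl (log2 fold change 0.21 ± 0.0568 SE, adjusted p = 0.0169, edgeR). The SRSF2 OE call ended without 1xCtrl replicate 1 (0.123) or 3 (0.085) and without SRSF2 OE replicate 1 (0.114) or 2 (0.145), and with no filter (0.0531), total counts alone (0.0509) or only the 2 groups fitted (0.0914). It was 0.20 (adjusted p = 0.0183) without 1xCtrl replicate 2. MYC-OE, at 203, 193 and 206 CPM, lay just below 3XCTL without passing (-0.09 ± 0.0482 SE, adjusted p = 0.163, edgeR). THRAP3 and BCLAF1 share no exon bases with another annotated gene.

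BCLAF1 (chr6:136256627-136289851, minus strand) was called in 1 comparison, SRSF3 OE, where 242, 209 and 227 CPM lay above 196, 161 and 203 in 1xCtrl (log2 fold change 0.27 ± 0.0818 SE, adjusted p = 0.0221, edgeR). The lowest control was 1xCtrl replicate 2, and without it the value was 0.17 and missed the threshold (adjusted p = 0.0531), as it did without SRSF3 OE replicate 1 (0.0988) or 3 (0.0717) and with upper-quartile scaling (0.105), total counts alone (0.115) or only the 2 groups fitted (0.108). BCLAF1 has 36.4% G or C in its longest annotated transcript, the lowest of the members and close to NKTR at 36.5%. Removal of the GC trend brought calls of -0.18 in 3xSR (adjusted p = 0.00537) and 0.26 in SRSF2 OE (adjusted p = 0.000625) for BCLAF1, where the deposited counts gave -0.02 and 0.15.

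NKTR (chr3:42600614-42648741), a large cyclophilin with an RS-rich tail, fell in MYC-OE, SRSF3 OE and SRSF7 OE. 1xCtrl measured 241, 217 and 256 CPM. SRSF7 OE, at 170.3, 171 and 157 CPM, lay far below, with a log2 fold change of -0.52 (± 0.0860 SE, adjusted p = 0.00172, edgeR). SRSF3 OE, at 182, 206 and 181 CPM, also lay below, by 0.33 (± 0.0859 SE, adjusted p = 0.0109, edgeR), so NKTR moved against the 3 members that were higher there. Without 1xCtrl replicate 2 the values were -0.57 and -0.40, and the libraries labelled SRSF2 OE, at 189, 230.2 and 220.2 CPM, passed as well (-0.23, adjusted p = 0.0353, against -0.16 and adjusted p = 0.206 with it). In MYC-OE NKTR measured 149, 149 and 162 CPM against 167, 197 and 178 in 3XCTL, lower by 0.24 (± 0.0623 SE, adjusted p = 0.0107, edgeR), a call that ended without MYC-OE replicate 1 (0.0508) or 2 (0.0509). Its exons share 351 bases with SEC22C and an antisense RNA on the opposite strand.

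The lines were then set against each other within a table. The differences rest on the libraries of the 2 lines, while the scaling and the estimate of spread behind the errors come from all libraries of the table, controls included. Calls of members that changed with only the 2 lines fitted are named below with each pair, and none changed between MYC-OE and 3xSR. Calls over all genes were not counted under these fits. The shares below come from the fit over the whole table. MYC-OE differed from the libraries labelled 3xSR in 8 of 10 members, where 34.9% of all genes passed, 17.6% lower and 17.3% higher. The groups did not overlap in 8 members, 7 of them lower, beside 53.2% of all genes. NEAT1 showed the largest difference, lower in MYC-OE by 0.68 (± 0.0752 SE, adjusted p = 4.64e-05, edgeR), followed by MALAT1, lower by 0.62 (± 0.0818 SE, adjusted p = 0.000166). NKTR, ACIN1, SRRM2, SON and PNN were lower by 0.30, 0.27, 0.26, 0.23 and 0.18, and THRAP3 was the member higher in MYC-OE, by 0.17. The SRRM2, THRAP3 and PNN calls ended without 3xSR replicate 2 (adjusted p = 0.116, 0.0507 and 0.156), 3xSR replicate 3 (0.074, 0.0696 and 0.136) or MYC-OE replicate 1 (0.0965, 0.0673 and 0.139), which left 5 calls. PNN ended also without MYC-OE replicate 2 (0.147) or 3 (0.058), SRRM2 without MYC-OE replicate 2 (0.107) and THRAP3 without MYC-OE replicate 3 (0.0738). Removal of the GC trend took the NKTR difference to -0.04 (adjusted p = 0.543) and PNN to -0.05 (adjusted p = 0.486), PNN also ended with no filter (0.0843) or upper-quartile scaling (0.0772), and the GC step turned BCLAF1 from -0.10 to 0.15 (adjusted p = 0.0137).

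SRSF3 OE and SRSF7 OE stood farthest apart among the single lines. All 10 members were higher in SRSF3 OE without overlap, beside 52.6% of all genes without overlap in either direction, and 7 passed the test, all higher, beside 35.2% of all genes and 17.8% higher. MALAT1 differed by 0.69 (± 0.117 SE, adjusted p = 0.000565, edgeR) and SON by 0.59 (± 0.0719 SE, adjusted p = 3.51e-05, edgeR). NEAT1, SRRM1, PNN, BCLAF1 and ACIN1 differed by 0.45, 0.39, 0.39, 0.31 and 0.25, and SRRM2, NKTR and THRAP3 by 0.21, 0.19 and 0.12 without passing. The NEAT1 call ended without SRSF3 OE replicate 2 (0.26, adjusted p = 0.0922) or 3 (adjusted p = 0.0704) and without SRSF7 OE replicate 1 (0.0794) or 2 (0.0711), and with no filter (0.0609), total counts alone (0.0769) or only the 2 lines fitted (0.0591). SRRM2 passed with only the 2 lines fitted (adjusted p = 0.0287), with limma-voom (0.0366) and with the GC trend removed (4.8e-05). NKTR passed with only the 2 lines fitted (0.041), and THRAP3 with the GC trend removed (0.0327).

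The libraries labelled SRSF2 OE differed from SRSF3 OE in both RNAs and from SRSF7 OE in 6 of the proteins. Against SRSF3 OE 5 members passed, all lower, beside 26.8% of all genes (14.1% lower), and these 5 did not overlap, beside 47.7%. The members were NEAT1, lower by 0.55 (± 0.137 SE, adjusted p = 0.0104, edgeR), MALAT1 by 0.53 (± 0.117 SE, adjusted p = 0.00531), SON by 0.30, SRRM2 by 0.29 and SRRM1 by 0.16. The NEAT1 call ended when only the 2 lines were fitted (-0.53, adjusted p = 0.0807). With the GC trend removed NKTR passed as higher (0.37, adjusted p = 0.000925). The SRRM2 call ended with no filter (adjusted p = 0.0502) and without any 1 of the 6 libraries compared (adjusted p from 0.0633 to 0.135), and the SRRM1 call without any but SRSF3 OE replicate 2 (0.0553 to 0.155) and under 6 of the other alternatives. Against SRSF7 OE 6 passed, all higher, beside 24.2% of all genes (11.5% higher), and 8 did not overlap, 7 of them higher, beside 46.0%. NKTR was higher by 0.36, PNN by 0.35, ACIN1 by 0.30, SON by 0.29, SRRM1 by 0.23 and THRAP3 by 0.21. The THRAP3 call ended without SRSF2 OE replicate 1 (0.0666) or 2 (0.0942) or SRSF7 OE replicate 1 (0.082) or 3 (0.063) or with no filter (0.0522), and the SRRM1 call without SRSF2 OE replicate 2 (0.0569). BCLAF1 passed as higher with only the 2 lines fitted (adjusted p = 0.0131) or the GC trend removed (0.000871). MALAT1 and NEAT1 did not pass between SRSF2 OE and SRSF7 OE, with differences of 0.17 (± 0.117 SE) and -0.10 (± 0.137 SE) that leave room for changes of either sign.

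**Figure D4:**
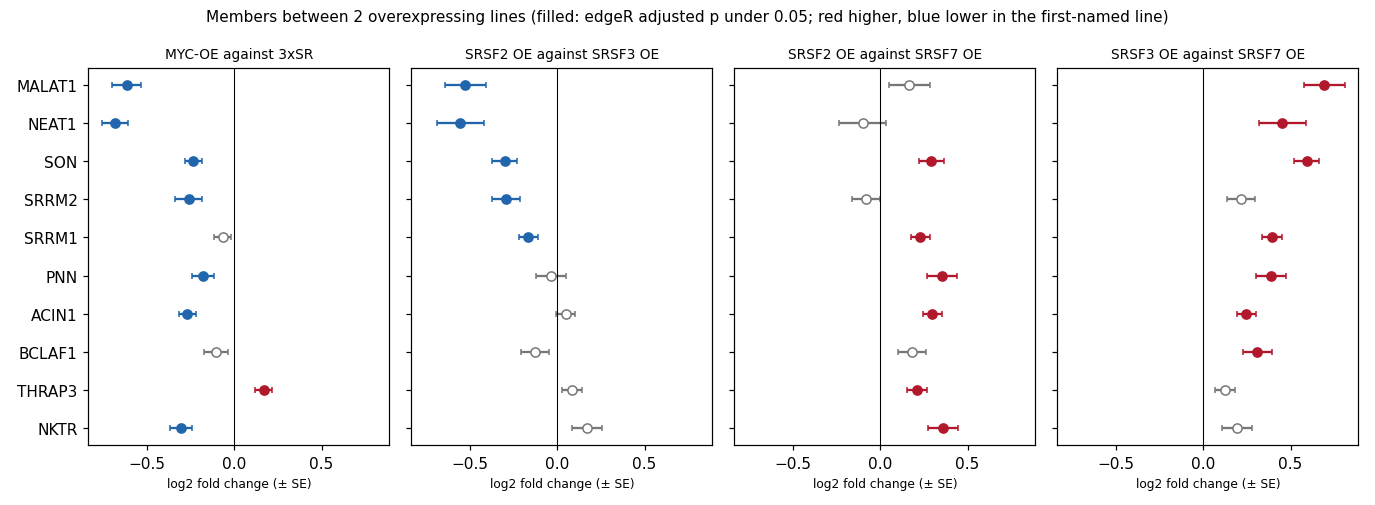
Log2 fold change of each member between 2 overexpressing lines (x axis, bars are ± SE), with 1 panel per pair; filled points passed an adjusted p of 0.05, red higher and blue lower in the line named first. In the panel of SRSF3 OE against SRSF7 OE every point lies to the right of 0, from 0.12 for THRAP3 to 0.69 for MALAT1.

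Other genes of the same bodies were read from lists chosen for their known roles. Their counts are read beside the share of all genes called, which was 29.0% in 3xSR, 35.3% in MYC-OE, 17.3% in SRSF7 OE, 29.2% in SRSF3 OE and 23.5% in SRSF2 OE, and, without 1xCtrl replicate 2, 32.1% in SRSF3 OE, 29.2% in SRSF7 OE and 7545 of 25110 genes in the libraries labelled SRSF2 OE. With the GC trend removed, genes called over all were 7628 in 3xSR, 9956 in MYC-OE, 6981 in SRSF7 OE, 9234 in SRSF3 OE and 8181 in SRSF2 OE. The fit without that step called 6727, 8182, 4214, 7108 and 5733, in the same order. For other alternatives and libraries left out, no share of all genes is set beside the list counts. Of the 26 values of list genes named below against 1xCtrl, 25 were called the same way without 1xCtrl replicate 2, RBMX in SRSF3 OE being the exception (0.13, edgeR adjusted p = 0.0685). These values were picked from the called genes, so the 25 do not speak for the lists, whose counts are given below. The partners of ACIN1 and PNN (7 genes of ASAP, PSAP and the exon junction complex) all passed as higher in SRSF3 OE, where 15.0% of all genes did, with a median of 0.31 beside -0.03 for all genes, from CASC3 at 0.20 (69.9 CPM in 1xCtrl, a core protein of the exon junction complex) to RBM8A at 0.49 (68.9 CPM, the Y14 protein). The count fell to 4 without 1xCtrl replicate 1, with total counts alone or with only the 2 groups fitted, and was 7 without 1xCtrl replicate 2. In the libraries labelled SRSF2 OE 4 of 7 passed, all higher (median 0.27), beside 11.6% of all genes higher and with 4 also without 1xCtrl replicate 2, between EIF4A3 at 0.27, the helicase that clamps the complex on RNA, and MAGOH at 0.46, the partner of RBM8A. In SRSF7 OE 3 passed, all higher, with SAP18 at 0.34 and RBM8A at 0.24, although ACIN1 itself was lower there, and the count was 5 (4 higher) without 1xCtrl replicate 2 and 1 without SRSF7 OE replicate 3. In MYC-OE 1 passed as higher (SAP18, 0.23) and 2 as lower, with EIF4A3 lowest at -0.49. In 3xSR EIF4A3 alone passed, at -0.23, and 4 passed without 3XCTL replicate 2 or with the GC trend removed. Over all alternatives the counts ranged from 1 to 4 in 3xSR, 3 to 4 in MYC-OE, 1 to 5 in SRSF7 OE, 4 to 7 in SRSF3 OE and 3 to 5 in SRSF2 OE.

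Among 24 other RS-rich or SR-related speckle proteins, PPIG and RSRC1 passed as higher in all 5 comparisons. PPIG, a nuclear cyclophilin with an RS-rich tail as in NKTR, was higher by 0.62 in 3xSR, 0.79 in MYC-OE, 0.39 in SRSF7 OE, 0.61 in SRSF3 OE and 0.62 in SRSF2 OE, while NKTR was called lower in 3 of these. RSRC1, an RS-rich splicing protein, was higher by 0.27 to 0.55. In 3xSR 7 of 24 (29.2%) passed, near the 29.0% of all genes, and all 7 were higher (median 0.05), led by the splicing factor RBM39 at 0.76, with ARGLU1 at 0.23 the smallest. In MYC-OE 3 passed as higher and 5 as lower (median -0.02), SREK1, a splicing regulator, being lowest at -0.46. In SRSF2 OE the counts were 4 and 3 (median 0.12), with ZRANB2 lowest at -0.34, in SRSF3 OE 7 and 2 (median 0.09), with LUC7L, which binds the U1 particle, lowest at -0.42, and in SRSF7 OE 2 and 5 (median -0.12), with SUGP2 lowest at -0.38. Without 1xCtrl replicate 2 the split in SRSF2 OE was 8 higher and 5 lower and in SRSF7 OE 4 higher and 9 lower. The 3xSR count was 14 (9 higher) without 3XCTL replicate 2 and 4 without 3XCTL replicate 1 or 3 or 3xSR replicate 3, and the MYC-OE count of 8 was 5 without MYC-OE replicate 2. The share of all genes called without these libraries is not given here. With the GC trend removed the counts were 11 in SRSF7 OE (3 higher), 15 in SRSF3 OE (12 higher) and 15 in SRSF2 OE (11 higher). Genes called over all rose with that step too, to 6981, 9234 and 8181.

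The 18 paraspeckle proteins, found in the bodies that NEAT1 builds, were called in both directions. In 3xSR 1 passed as higher (ZNF24, 0.19) and 1 as lower (SMARCA4, -0.29), beside 29.0% of all genes. That count was 5 with the GC trend removed, 4 without 3XCTL replicate 2, and 1 with only the 2 groups fitted or without 3XCTL replicate 1 or 3 or 3xSR replicate 1 or 3. In MYC-OE 7 were lower and 1 higher (median -0.14), TARDBP, the RNA-binding protein TDP-43, lowest at -0.43 and TAF15 higher at 0.24; the count of 8 was 5 without any 1 MYC-OE library, with upper-quartile scaling or with no filter, and 13 (9 lower) with the GC trend removed. In the libraries labelled SRSF2 OE 5 of 18 (27.8%) passed, near the 23.5% of all genes, and all 5 were higher (median 0.12), PSPC1 at 0.51 and SFPQ at 0.22 at the ends of their range, both core paraspeckle proteins. Without 1xCtrl replicate 2 they were 6 higher and 2 lower, with the GC trend removed 9 were called, all higher, and with only the 2 groups fitted 3. In SRSF3 OE 4 were higher (median 0.07), from RBMX at 0.19 to PSPC1 at 0.37, with 2 left without 1xCtrl replicate 2 and 1 without 1xCtrl replicate 1 or SRSF3 OE replicate 1 or 3. In SRSF7 OE TAF15 was highest of 2 at 0.33 and TARDBP was lower at -0.22 (median -0.03), and the count of 3 ranged from 1, with the replicate block or only the 2 groups fitted, to 7 with the GC trend removed, and was 5 without 1xCtrl replicate 2 or SRSF7 OE replicate 1.

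The 14 listed neighbours of NEAT1 and MALAT1 in band 11q13, of which 13 were tested, passed in 0 to 3 cases a comparison. None passed in 3xSR by edgeR and 1 by DESeq2, but 7 did without 3XCTL replicate 2, where the share of all genes is not given here. In MYC-OE LTBP3 was higher by 0.46 while SLC25A45 was lower by 0.73 and DPF2 by 0.17, and the count of 3 was 5 without 3XCTL replicate 1. LTBP3, which binds the growth factor TGF-beta, was lower by 0.71 in SRSF2 OE, where FRMD8 was higher by 0.45, and by 1.04 in SRSF3 OE, where DPF2 was higher by 0.31. In SRSF7 OE POLA2, a subunit of the primase complex, was the 1 gene called, lower by 0.28. Without 1xCtrl replicate 2 each of the single lines had 6 of 13 called, of which 4 were higher in SRSF3 OE and 5 in each of the others, beside the share of all genes without that library given with the first list (7545 of 25110, 32.1% and 29.2%). The SRSF7 OE call was lost without 1xCtrl replicate 1 or any 1 SRSF7 OE library, and the SRSF2 OE count of 2 was 1 without 1xCtrl replicate 1 or any 1 SRSF2 OE library.

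**Figure D5:**
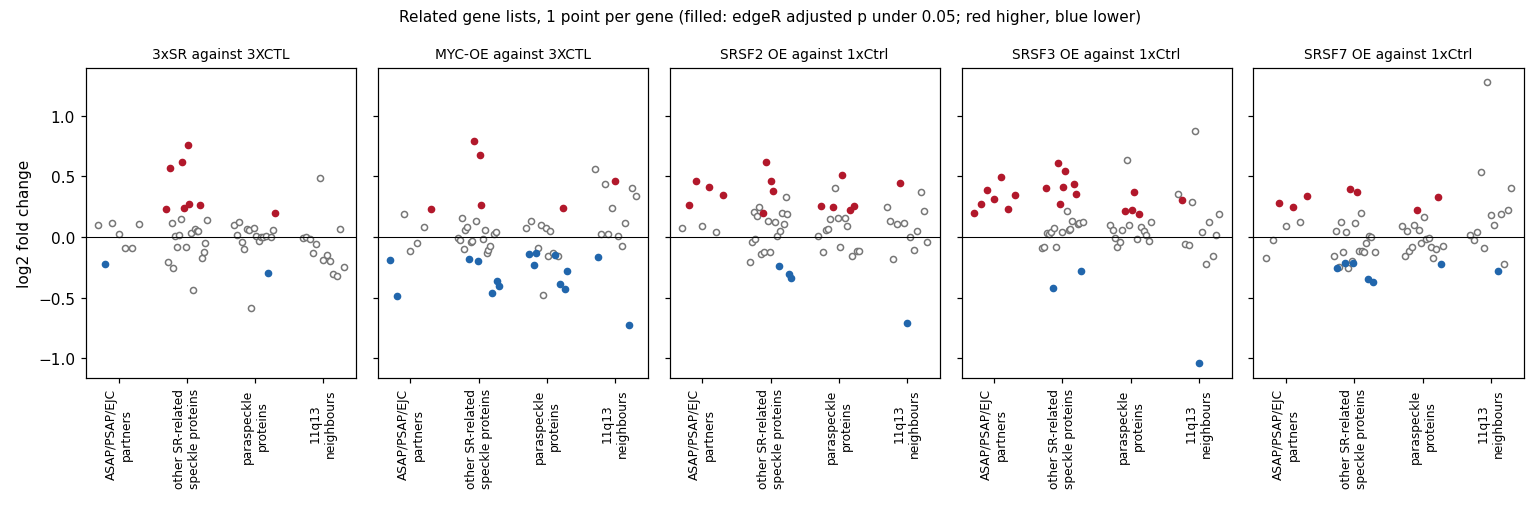
Log2 fold change of each gene (y axis) of the 4 related lists (x axis) against the control of its table, with 1 panel per line; filled points passed an adjusted p of 0.05, red higher and blue lower. In the SRSF3 OE panel all 7 partners of ACIN1 and PNN are filled and lie between 0.20 and 0.49.

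Across the 21 libraries, taken as log2 deviations from the control mean of each table, 40 of the 45 pairs of members had a positive Pearson r, with a median of 0.51. These points share libraries, depth and base composition, and the values are descriptions. No such count for pairs of all genes is given here, so the 40 cannot be read as particular to the members. The highest r was that of PNN and ACIN1 (0.82), followed by MALAT1 and NEAT1 (0.76), and the lowest that of NEAT1 and THRAP3 (-0.56). Among 11271 genes compared, those most like MALAT1 were ZNF587 (r = 0.95), ASAP1 (0.94) and AREL1 (0.93), and those most like NEAT1 were RNPC3 (0.94), ZNF117 (0.93) and SDHAP4 (0.92).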

How the data were processed

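RNA-seq counts per gene of 21 libraries were used as deposited, in 2 tables that list the same 60668 Ensembl genes. Per the labels' protocols, DNase-treated total RNA was polyA-selected and made into stranded libraries that were read from both ends on a NovaSeq. Per the submitters' processing notes, the authors used Trimmomatic 0.39, STAR and StringTie 2.1.3b with GRCh38.p13; the order of the steps, the annotation release and the strand setting of the counts are not given in the sources used here. The deposited counts are whole numbers, not scaled to a common total. Without a stated strand setting, reads on exons that overlap a gene on the other strand may have been counted for either.

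Groups and replicate numbers come from the sample titles. Symbols were matched to 42044 identifiers and GENCODE release 29 to 58561, without regard to version. Tests used edgeR 4.0.16 under R 4.3.3 (filterByExpr with a minimum count of 10 and a minimum total of 15, TMM scaling, robust quasi-likelihood fit, F test in either direction, Benjamini-Hochberg over 23160 and 24362 genes, threshold 0.05), with 1 fit per table over all its groups. The standard error is the log2 fold change divided by the square root of F. CPM are counts over the TMM-scaled library size, as edgeR gives them. The script was tested on simulated data. Between replicates of a group, counts differed by more than sampling noise in all 21 pairs (chi-square divided by its degrees of freedom, 15.9 to 275).

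The members, the lists and the rule for named genes were chosen with earlier results of these data known. That rule names all members and, from each other list, the called genes with the highest and lowest change in each comparison with a control, genes called the same way in all 5, and the 3 genes with the highest r with MALAT1 and with NEAT1 among those with a mean of at least 5 CPM. Comparisons that share a control are not independent. Alternatives were RLE, upper-quartile and total-count scaling, no filter, at least 10 counts in every library, DESeq2 1.42.0, limma-voom (limma 3.58.1), a fit of only the 2 groups compared, a replicate block, removal of each library's GC trend in 50 bins, and leaving out each library. The same alternatives for the lists that are no members, and the overlaps, ratios and list genes without 1xCtrl replicate 2, were chosen after seeing the data. Sequence features of the member proteins were not analysed here.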

Additional observations from a re-analysis of the deposited data

How the results depend on the processing

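Of the 21 calls of members against a control, 10 passed in every alternative and without every library (NEAT1, MALAT1 and SRRM2 in MYC-OE, MALAT1, SON and NKTR in SRSF7 OE, SON and THRAP3 in 3xSR, NEAT1 in SRSF2 OE and NKTR in SRSF3 OE), and 11 were lost in at least 1. No call against a control changed sign. Members called in SRSF3 OE were 4, and 1 with upper-quartile scaling, with total counts alone or with only the 2 groups fitted, and 2 with no filter or with at least 10 counts in every library, and 6 (5 higher) with the GC trend removed, which added ACIN1 and THRAP3. In SRSF7 OE the 5 became 8 with upper-quartile scaling, at least 10 counts, DESeq2 or the GC trend removed. Genes called over all in SRSF7 OE were 3992, 4608, 4853 and 6981 under these, in the same order, beside 4214. Upper-quartile scaling also moved the median of all genes in SRSF7 OE to -0.04. In 3xSR the 3 became 5 with the GC trend removed, in SRSF2 OE the 4 became 2 with only the 2 groups fitted, and between SRSF2 OE and SRSF3 OE the 5 became 3 with no filter. Removal of the GC trend also raised the genes called over all, from 6727 to 7628 in 3xSR and from 7108 to 9234 in SRSF3 OE. Without 1 library the counts ranged from 3 to 5 in MYC-OE, 2 to 5 in SRSF2 OE, 1 to 3 in SRSF3 OE, 5 to 8 between MYC-OE and 3xSR, and 3 to 4 between SRSF2 OE and SRSF3 OE. The 4214 genes called in SRSF7 OE were 6981 with the GC trend removed, 2251 with only the 2 groups fitted and 2685 to 7321 without 1 library, 7321 being without 1xCtrl replicate 2. For the other changes in member counts outside SRSF7 OE, calls over all genes are not set beside them here. The causes were not tested.

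Same-numbered libraries showed no steady pairing: their mean r ranged from -0.53 to 0.14 over the contrasts, and every contrast had a negative r in some pair. MYC-OE against 3XCTL had -0.11, 0.25 and 0.27 for replicates 1 to 3. These values include the GC deviations of single libraries, so they cannot show whether a pairing lies beneath. With the replicate block, members called in SRSF3 OE were 2, where genes called over all were 6343 instead of 7108. The calls of SON and SRRM1 in SRSF3 OE, ACIN1 in SRSF7 OE, PNN between MYC-OE and 3xSR and SRRM1 between SRSF2 OE and SRSF3 OE were lost with the block.

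Signs changed for members with no call. On the log2 scale, SON in MYC-OE was 0.00301 with RLE, 0.00904 with upper-quartile scaling, 8.35e-05 with no filter, 0.00303 with DESeq2 and 0.0138 with the GC trend removed. SRRM1 in SRSF2 OE was -0.000948, -0.000844 and -0.0578 with RLE, upper-quartile and total-count scaling, -0.0357 with no filter, -0.00753 with at least 10 counts, -0.000932 with DESeq2, -0.0253 with the GC trend removed and -0.0399 with only the 2 groups. THRAP3 in SRSF7 OE was -0.00398, -0.0361 and -0.00222 with the same 3 scalings, -5.70e-05 with no filter, -5.79e-05 with at least 10 counts, -0.00398 with DESeq2 and -0.00257 with only the 2 groups. NEAT1 in SRSF3 OE was -0.0324 and -0.0758 with upper-quartile and total-count scaling, -0.0161 with no filter, -0.0159 with the GC trend removed and -0.00530 with only the 2 groups, and ACIN1 in SRSF3 OE was -0.00546 and -0.0525 with those scalings. With the GC trend removed, SRRM2 in SRSF3 OE was 0.0616, BCLAF1 in SRSF7 OE 0.0108, NKTR and PNN in 3xSR -0.0914 and -0.0412, BCLAF1 between MYC-OE and 3xSR 0.154, and ACIN1, BCLAF1 and PNN between SRSF2 OE and SRSF3 OE -0.0427, 0.0715 and 0.0377. PNN in that pair was also 0.0243 and 0.0132 with upper-quartile and total-count scaling. Without 1 library, signs changed for MALAT1, NKTR and BCLAF1 in 3xSR (-0.126 to 0.0514, -0.00207 to 0.134 and -0.0877 to 0.0310), SON in MYC-OE (-0.0338 to 0.0217), SRRM1 in SRSF2 OE (-0.0887 to -0.00650), ACIN1, NEAT1 and SRRM2 in SRSF3 OE (-0.0135 to 0.0526, -0.178 to 0.143 and -0.138 to 0.0697), BCLAF1 and THRAP3 in SRSF7 OE (-0.118 to 0.00236 and -0.0360 to 0.00650) and PNN between SRSF2 OE and SRSF3 OE (-0.112 to 0.0317). Total counts alone moved the median of all genes in SRSF3 OE from -0.03 to -0.14, and changes are read relative to it.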
